A study of Drosophila melanogaster with 2 samples.

Results

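The genes described here are 9 genes of the Drosophila septate junction, and the measurement is the binding of fd3F around each of them. They are Nrx-IV, Cont, Nrg, cora, vari, kune, sinu, Mcr and nrv2, taken by symbol from 13945 protein-coding genes on 6 chromosome arms. Each gene was read over its annotated body plus 5 kb on each side. A summit is the position of highest signal within a called peak, and the windows of the 9 genes hold 10 of the 3917 summits in the reproducible peak list. fd3F is a forkhead transcription factor known for its role in chordotonal (stretch-sensing) neurons. The study mapped it by ChIP-seq with an anti-GFP antibody in whole embryos aged 8 to 18 h, from 1 transgenic fly line that carries fd3F tagged with GFP at its C-terminus, so the neurons were not isolated. There is 1 group with 2 biological replicates, numbered 1 and 3, and so no contrast between conditions. In whole embryos, binding in a small share of cells and weak binding in many cells cannot be told apart.

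Septate junctions are ladder-like contacts between the lateral membranes of ectodermal epithelial cells, and between the glial cells that seal the nervous system from the hemolymph. They limit the passage of solutes between cells. Their proteins form 1 large complex of adhesion molecules, claudins, cytoplasmic scaffolds and the sodium-potassium pump, and loss of most of them opens the barrier.

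There are 4 deposited lists. Those of the single replicates and of both pooled hold 30000 peaks each, and the reproducible list equals the 3917 pooled peaks of highest signal. The README describes the reproducible list as peaks thresholded by IDR (irreproducible discovery rate, a measure of rank agreement between replicates) and derived from the other lists. In these files every reproducible peak also has a pooled rank of 3917 or better. Signal is the authors' enrichment value, on a scale of its own in each list. The lists carry no read counts, so sequencing depth is unknown. A q-value no higher than 0.05 was given to 11489 peaks in replicate 1, 8373 in replicate 3 and 10181 in the pool, so most listed peaks are weak.

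The sequences under some of the reproducible summits are shown because fd3F is a forkhead factor. The letters at these summits can thus be read beside their signals. Each run is the 61 bp around a summit on the plus strand of dm6. Capitals mark a forkhead word, which is 1 of 8 words of 7 letters on either strand: an A or G, a C or T, then AAA, a C or T, and a final A. The best summit in the window of each of the 5 genes that have one is given, with the other 2 intronic summits of Nrg. The runs labelled vari, sinu and nrv2 lie in the flanks, outside those genes.
Nrg, X:8542145-8542205: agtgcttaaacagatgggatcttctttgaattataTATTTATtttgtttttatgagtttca
Nrg, X:8538378-8538438: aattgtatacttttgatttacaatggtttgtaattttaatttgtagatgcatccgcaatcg
Nrg, X:8533652-8533712: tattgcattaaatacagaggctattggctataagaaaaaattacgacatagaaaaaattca
vari, 2L:20787373-20787433: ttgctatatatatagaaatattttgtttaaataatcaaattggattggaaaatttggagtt
sinu, 3L:5554540-5554600: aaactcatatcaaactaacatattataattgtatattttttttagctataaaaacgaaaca
Mcr, 2L:8082172-8082232: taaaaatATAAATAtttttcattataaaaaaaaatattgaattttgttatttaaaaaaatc
nrv2, 2L:6787157-6787217: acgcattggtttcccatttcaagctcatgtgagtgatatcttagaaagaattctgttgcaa
The GC content of these runs is 24.6%, 27.9% and 26.2% for Nrg, 19.7% for vari, 18.0% for sinu, 6.56% for Mcr and 37.7% for nrv2. The first Nrg run and the Mcr run hold a forkhead word, 1 each, and it is ATAAATA in both. Shares of summits with such a word, in wider windows and beside all reproducible summits, are given with the other words.

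Reproducible fd3F peaks lay near 5 of the 9 genes and at the start site of 1, Mcr. Nrg had 4 reproducible summits in its window, vari and nrv2 had 2 each, and sinu and Mcr had 1 each. Nrx-IV, Cont, cora and kune had none. Among all protein-coding genes, 45.9% had a reproducible summit in the body or 5 kb flanks. The members' 5 of 9 is near that background. A summit within 1000 bp of an annotated start site was found for 1 of 9 members, where 20.8% of all protein-coding genes had one. The exact binomial 95% interval of the members' share, 0.281 to 48.2%, holds that background, so this count does not set the members apart. The same gene, Mcr, was the 1 member called among the best 3917 peaks of replicate 1 (20.1% of all genes) and among the best 3917 of replicate 3 (21.3%). Summits inside the gene body were found in Nrg and Mcr, 2 of 9 members, beside 11.1% of all genes.

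**Figure D1:**
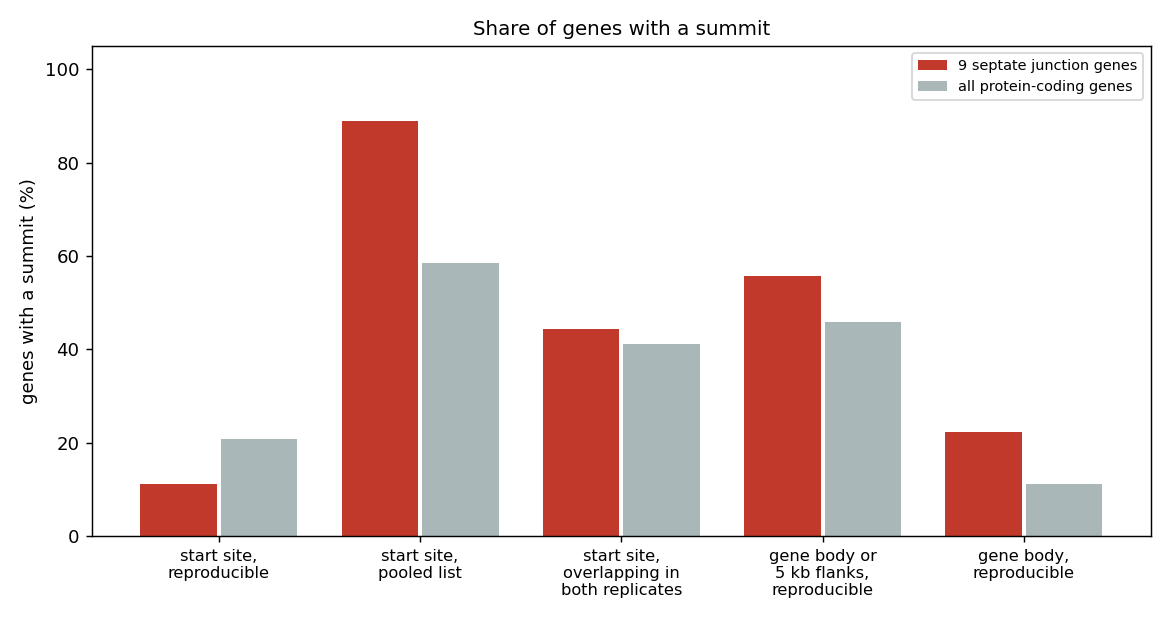
Share of genes with a summit under 5 counting rules, in percent, for the 9 septate junction genes (red) and all 13945 protein-coding genes (grey). Under the start-site rule with reproducible peaks the septate junction bar is at 11.1% beside 20.8%, and with all pooled peaks it is at 88.9% beside 58.4%.

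Longer genes collect more summits, so the members were also read by length. Of 2 members under 5 kb (kune and sinu) 1 had a reproducible summit in its window, where 41.5% of all genes of that length did. Of 6 members of 5 to 15 kb 3 did, beside 56.7%. Nrg was the 1 member of 15 kb or more, a class in which 62.8% of genes had a summit. Per length, the windows of the 9 genes held 0.531 reproducible summits per 10 kb over 188 kb, against 0.339 per 10 kb over all extended protein-coding genes and 0.293 over the arms. The same density in all 30000 pooled peaks was 4.73 per 10 kb over the 9 genes and 2.49 over all extended genes. The replicates differed here: it was 4.99 against 2.54 in the full replicate 1 list, and 3.29 against 2.42 in that of replicate 3. Nrg alone gave 4 of the 10 reproducible summits. Having 2 or more reproducible summits in the window was seen in 3 of 9 members (Nrg, vari and nrv2), beside 18.5% of all genes.

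**Figure D2:**
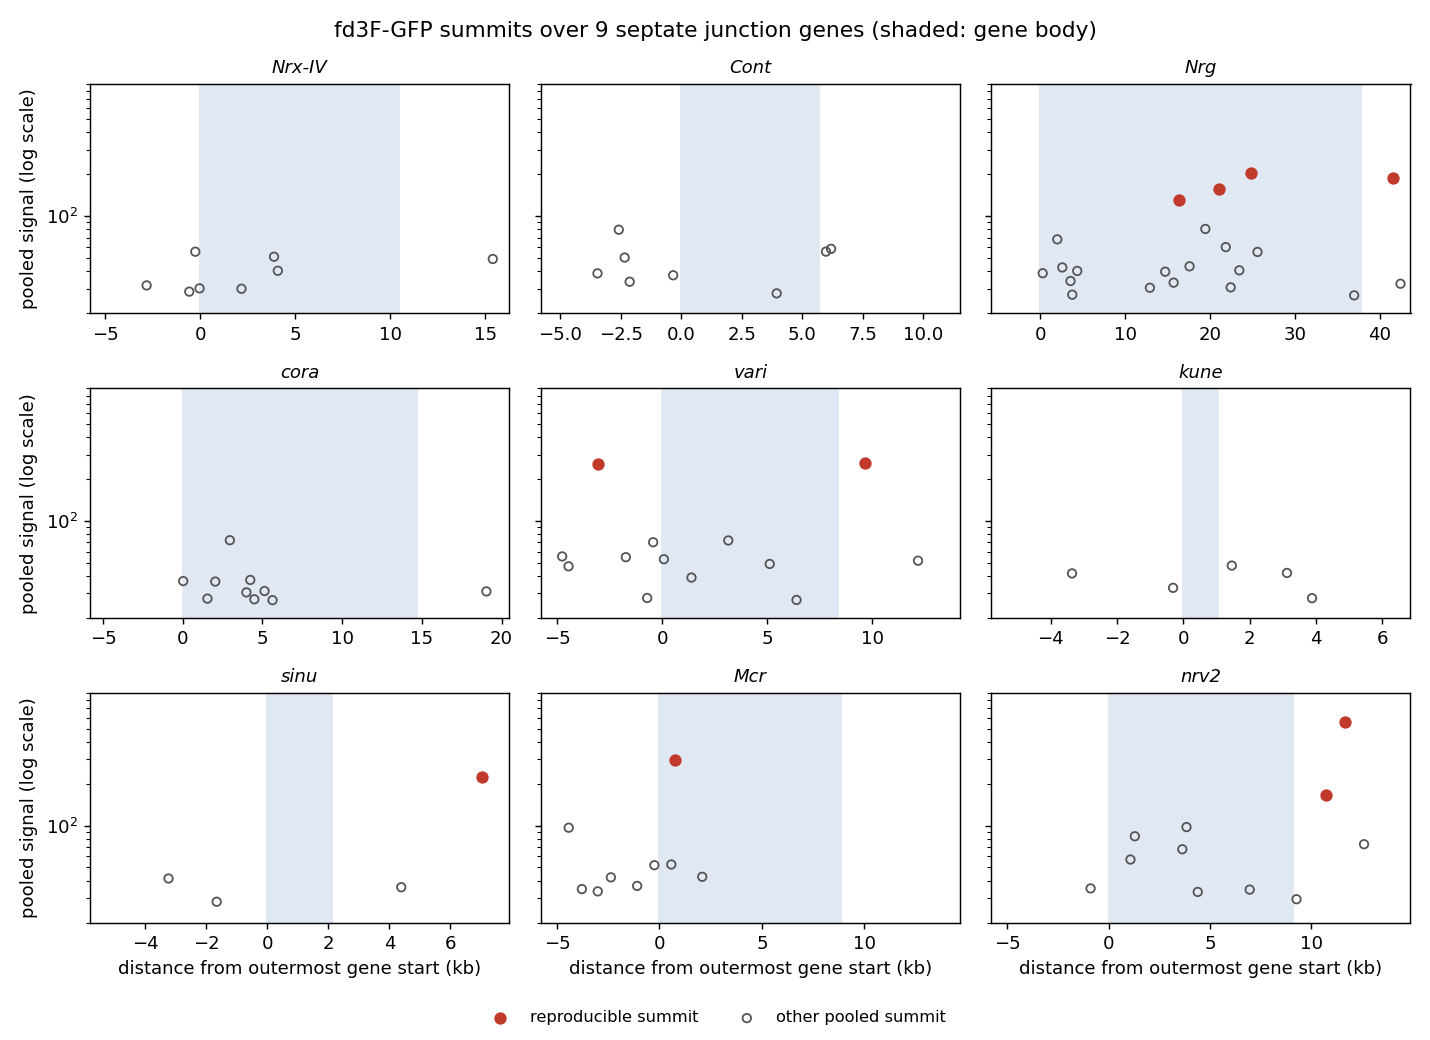
Pooled summits over each of the 9 genes, by distance from the outermost gene start in the direction of transcription (kb) and by pooled signal (log scale), with the gene body shaded. Filled points are the 10 reproducible summits and open points the other 79 pooled summits. Within gene bodies, filled points appear only in Nrg (3) and Mcr (1).

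Nrx-IV, Cont and Nrg encode the adhesion proteins of the complex: a neurexin, a contactin with immunoglobulin domains, and neuroglian, an L1-type adhesion molecule that is also found on axons. Nrg (FBgn0264975, X:8517373-8555170, plus strand) held the most reproducible summits of the 9. Of them, 3 lay in 1 intron of 12.4 kb (X:8532465-8544849) downstream of the first coding base, at 15941, 20667 and 24434 bp from the nearest Nrg start site. The strongest (X:8542115-8542244) had a signal of 104 and rank 1935 in replicate 1, and a signal of 97.1 and rank 1991 in replicate 3. In replicate 1 the others had signals of 80.6 and 67.1, and in replicate 3 of 81.6 and 68.1. All 3 intronic peaks were thus within the best 3917 of each replicate, with summits 8 to 71 bp from the pooled ones. The nearest protein-coding start site to each was that of PIP82, a gene on the other strand within the span of Nrg, at 3984, 8710 and 12477 bp. The remaining Nrg summit lay in the flank, 3720 bp past the end of Nrg and 109 bp upstream of IntS4, which encodes a subunit of the Integrator complex. It had a signal of 75.5 in replicate 1 and 112 in replicate 3. Having 4 or more summits in the window was seen in 12.8% of genes of 15 kb or more. At the clustered Nrg start sites the best signals were 39.9 in replicate 1 and 32.2 in replicate 3, at ranks 8416 and 7671, well below the intronic peaks.

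Nrx-IV (FBgn0013997, 3L:12146519-12156990) and Cont (FBgn0037240, 3R:4381306-4387018) had weak peaks only. For Nrx-IV the best start-site summits had a signal of 37.8 and rank 9268 in replicate 1, at 566 bp upstream, and a signal of 46.0 and rank 4893 in replicate 3, at 137 bp upstream. These are 2 different peaks, which do not overlap. The start of Nrx-IV faces that of eIF3l, a translation initiation factor gene, and the best pooled summit there (signal 55.3, rank 10047) was nearer to eIF3l, at 160 bp upstream of it, than to Nrx-IV, at 262 bp. The nearest reproducible summit to Nrx-IV lay 7026 bp upstream, outside the window. For Cont the best pooled summit (signal 79.7, rank 6112) lay 132 bp downstream of the start of Sfxn1-3, a mitochondrial carrier gene, and 2574 bp upstream of Cont. It was at rank 17964 in replicate 1 and 4314 in replicate 3. At the start of Cont itself replicate 1 had a summit of signal 31.8 and replicate 3 had none.

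The cytoplasmic scaffolds are Coracle (cora), a FERM-domain protein that binds the tail of Nrx-IV, and Varicose (vari), a membrane-associated guanylate kinase. Their loci differed. The window of vari (FBgn0250785, 2L:20788662-20797042, minus strand) had 2 strong summits, both outside the gene. The first (2L:20787311-20787487) lay 1259 bp past the end of vari and 253 bp upstream of Pomp, a proteasome maturation factor gene. Its signal was 148 in replicate 1 and 106 in replicate 3, at ranks 1125 and 1745. The second (2L:20800018-20800208) lay 3080 bp upstream of vari in an intron of CG9328, with signals of 151 and 107 and ranks of 1096 and 1730. Nearer the gene the peaks were weaker in both replicates. The start region that vari shares head to head with CG9328 had best signals of 48.8 in replicate 1 and 47.6 in replicate 3. These were at ranks 5925 and 4696, from overlapping peaks with summits 300 bp apart. Both summits were nearer to the CG9328 start, at 68 and 232 bp, than to the vari start, at 741 and 441 bp. Replicate 1 also had a summit of signal 39.4 at 126 bp downstream of this vari start, without an overlapping peak in replicate 3. The inner start of the transcripts vari-RC and vari-RF had a signal of 57.5 at rank 4578 in replicate 1 and of 34.3 at rank 7077 in replicate 3, from peaks 108 and 557 bp downstream that do not overlap.

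cora (FBgn0010434, 2R:19229063-19243751) had 10 pooled summits in its window and no reproducible one, and 9 of the 10 lay in the first 5638 bp of the gene. The highest (pooled signal 72.5, rank 6922) was 2963 bp downstream of the start, in an intron. It had a signal of 47.1 and rank 6266 in replicate 1, but 17.7 and rank 20569 in replicate 3. At the start site the best signals were 37.1 in replicate 1 and 18.1 in replicate 3, from peaks 952 and 30 bp downstream that do not overlap. No cora summit of replicate 3 had a q-value of at most 0.05, whereas 4 of replicate 1 did.

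kune and sinu encode claudins, small proteins that span the membrane several times and line the barrier between cells. kune (FBgn0033032, 2R:5671741-5672800) had the lowest best pooled signal of the 9, 47.6 at rank 12685, in the flank 1464 bp from its start. Its best summits had a signal of 40.2 and rank 8308 in replicate 1, and of 21.4 and rank 14755 in replicate 3. At the start site replicate 1 had none, and replicate 3 had a summit of signal 15.3 at rank 26310. The nearest reproducible summit lay 296 kb from the kune start, and only 117 of the 13945 genes (0.839%) were farther from one. sinu (FBgn0010894, 3L:5559470-5561598, minus strand) had no summit within 1000 bp of its start in any of the 4 lists, and the nearest pooled summit lay 1655 bp upstream at rank 27461. Its 1 reproducible summit (3L:5554462-5554702) lay 4900 bp past the gene's end, close to the edge of the window, and 3411 bp upstream of frm. That peak had a signal of 84.9 and rank 2591 in replicate 1, and a signal of 149 and rank 1070 in replicate 3. It was the summit whose ranks differed most between the replicates among the best summits of the 5 genes.

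Mcr encodes a large protein of the thioester-protein superfamily that is needed to assemble the junction, and nrv2 encodes a beta subunit of the sodium-potassium pump. Mcr (FBgn0267488, 2L:8074117-8082982, minus strand) had the 1 reproducible start-site peak. The peak (2L:8082019-8082206) had its summit 780 bp downstream of the start, in the first intron (2.2 kb), 1592 bp before the first coding base. Its signal was 146 in replicate 1 and 151 in replicate 3, at ranks 1153 and 1042, so both replicates placed it alike. The pooled summit lies at the very edge of its peak, and the adjoining pooled peak had a signal of 52.5 and overlapped the same replicate peaks. The start of the antisense RNA gene asRNA:CR45257, on the other strand, was nearer, at 657 bp, and peaks carry no strand. At the head-to-head start of Mcr and Bsg, which encodes an immunoglobulin-domain protein, the pooled summit 249 bp upstream of Mcr was weak (signal 51.9, rank 11061). It had a signal of 34.3 in replicate 1 and no overlapping peak in replicate 3. Farther upstream, 4431 bp from Mcr and inside Bsg, a summit had a signal of 43.9 and rank 7073 in replicate 1, and of 55.1 and rank 3996 in replicate 3, which is just outside the best 3917.

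nrv2 (FBgn0015777, 2L:6789770-6798862, minus strand) had the strongest peak in any of the windows. It lay 2583 bp past the end of nrv2 (2L:6786994-6787395) and 326 bp upstream of nrv1, the neighbouring gene for another beta subunit. Its pooled signal was 563 at rank 336, and it had a signal of 280 and rank 351 in replicate 1, and of 298 and rank 303 in replicate 3. The second reproducible summit lay 1286 bp upstream of nrv1, with signals of 92.1 and 85.0 at ranks 2317 and 2347. The annotated starts of nrv2 had no reproducible summit, and they differed among themselves. At the start of transcripts nrv2-RA, nrv2-RD and nrv2-RE the signal was 53.9 in replicate 1 and 50.4 in replicate 3, at ranks 5067 and 4393, and the summits lay 419 and 424 bp upstream. Near the starts of nrv2-RF and nrv2-RG the replicates differed, with a best signal of 56.2 at rank 4743 in replicate 1 and of 16.8 at rank 22656 in replicate 3. Around the outermost start, that of nrv2-RC, replicate 1 had no summit and replicate 3 had 1 at rank 13969. That summit lay 886 bp upstream of nrv2-RC, but 4 bp from the start of a transfer RNA gene, tRNA:Arg-CCT-1-1.

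**Figure D3:**
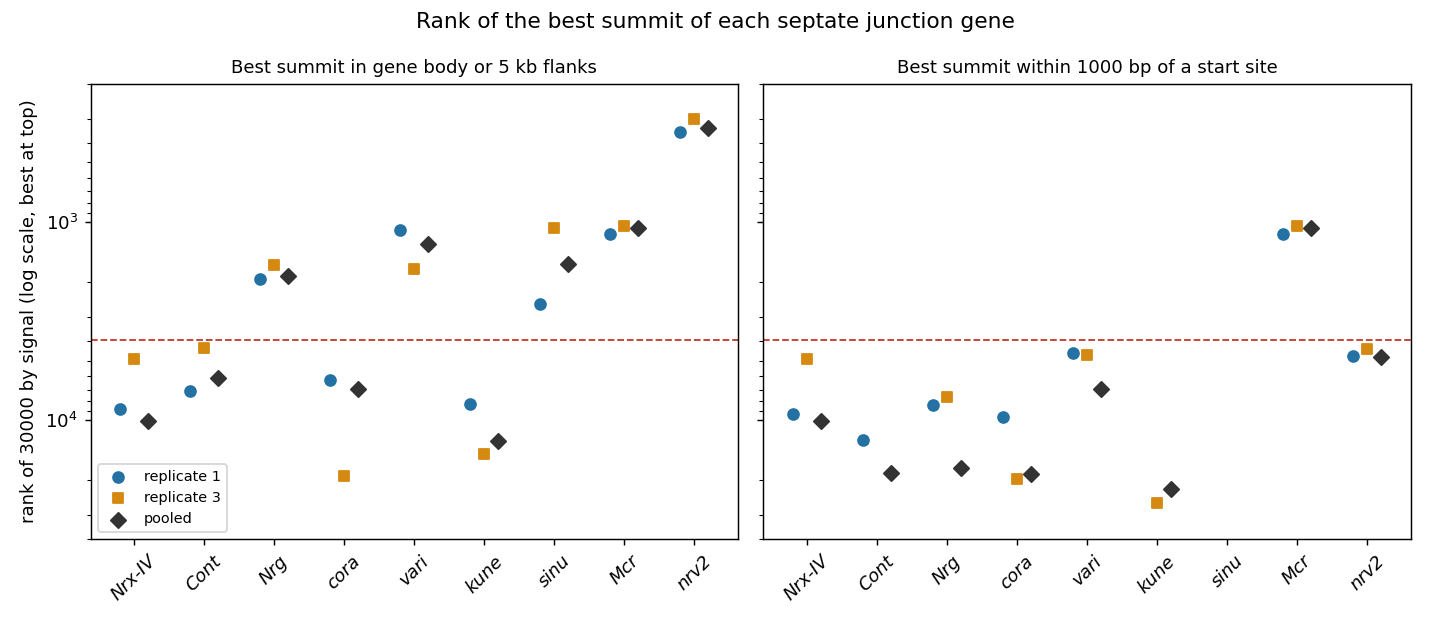
Rank by signal of the best summit of each gene in replicate 1, replicate 3 and the pooled list (30000 peaks each, log scale, best at top), over the body and 5 kb flanks (left) and within 1000 bp of a start site (right); the dashed line is rank 3917. On the left 5 genes lie above the line in all 3 lists, and on the right only Mcr does.

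With the weak peaks included, start-site summits became more frequent among the members and among all protein-coding genes, whose share rose from 20.8%. In the pooled list 8 of 9 members had one (58.4% of all protein-coding genes), sinu being the exception. In the replicate 1 list 7 of 9 did (60.1%) and in the replicate 3 list 7 of 9 (56.2%). The exact 95% intervals of the members' shares, 51.8 to 99.7% pooled and 40.0 to 97.2% in each replicate, hold these backgrounds. The pooled start-site summits of Cont, Nrg, cora and kune had q-values above 0.05. Overlap was less frequent. Nrg, vari, Mcr and nrv2, 4 of 9 members, had a start-site summit in each replicate whose peak overlapped a peak of the other replicate, a share close to the 41.1% of all genes. The median distance from a member's nearest start site to a reproducible summit was 7.03 kb, against 7.79 kb over all protein-coding genes.

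The reproducible list is described as thresholded by IDR, and it equals the 3917 pooled peaks of highest signal. The pool is made of these same replicates, so overlap with the peaks of the replicates is not independent support. Of all reproducible peaks, 98.3% overlapped a peak in both full replicate lists. All 10 summits of these genes overlapped a peak among the best 3917 of replicate 1 and of replicate 3, where 3074 of 3917 reproducible peaks did (78.5%). The exact 95% interval for the 10, 69.2 to 100%, holds that background. The replicate 1 summit lay a median of 7.5 bp from the pooled summit (range 0 to 71 bp) and the replicate 3 summit 24 bp (range 1 to 72 bp). Their pooled signals had a median of 214 (range 130.5 to 563), beside a median of 197 over the whole reproducible list. Of the other 79 pooled summits in the windows, 28 (35.4%) overlapped a peak of both replicate lists, and 45.5% of all pooled peaks below the reproducible list did. Over the 38 pooled summits matched in both lists, Spearman's rho between replicate ranks was 0.681; these summits share libraries, and neighbours can match the same peak.

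**Figure D4:**
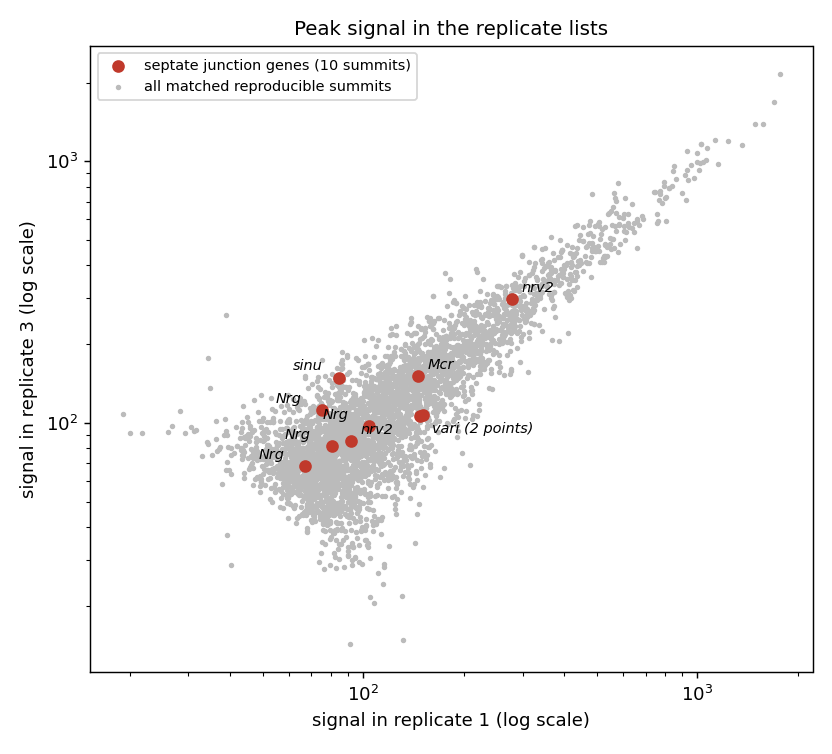
Peak signal in replicate 1 and replicate 3 (log scales) for the 10 reproducible summits over the septate junction genes (red, named) and for the 3852 reproducible summits matched in both lists (grey). The red points run from 67.1 and 68.1 at Nrg to 280 and 298 at nrv2, and sinu lies toward replicate 3.

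By annotation, 5 of the 10 summits lay in introns of any gene, where 50.1% of all reproducible summits did, and 4 lay between genes, beside 38.4%. The remaining 1 lay in a 3′ untranslated region, that of CG12112 beside IntS4, beside 1.66%. None lay in a 5′ untranslated region (7.15% of all) or in a coding exon (0.434%). Within 1000 bp of any annotated start site lay 4 of 10, where 2390 of all 3917 reproducible summits did. Those 4 were at Mcr, IntS4, Pomp and nrv1. The member's own start was the nearest protein-coding start for 1 of the 10, that of Mcr. The same share was not computed for other genes.

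GC content within 100 bp of the summits had a median of 33.8% (range 16.4 to 37.3%), beside a median of 33.3% over all reproducible summits. The Mcr summit was the extreme: 4 of 3917 summits, itself included, had a GC content of 16.4% or less. A forkhead word was present within 100 bp of 5 of 10 summits, where 60.0% of all reproducible summits held one. Within 50 bp the counts were 3 of 10 for the members' summits and 41.4% of all reproducible summits. The 5 were 2 of the intronic Nrg summits, the CG9328 summit in the vari window, the Mcr summit and the second nrv2 summit. The Mcr window held 3 matches. The strongest peak, between nrv2 and nrv1, held none. No summit held the stricter word TGTTTAC, which is also 1 of the 8 words read on the other strand (7.43% of all), TATCGAT of the DNA replication-related element (6.03%), or ACCGGTT or AACCGGT of the epithelial regulator Grainy head (0.536%). GTTGCC, a part of the Rfx X-box, was at 1 of 10 (8.73%) and GAGAG at 2 of 10 (18.4%). In the 250 bp before to 50 bp after the start sites, 8 of 9 members had a forkhead word in at least 1 start window, as did 68.5% of all protein-coding genes. The one without was nrv2. TATCGAT was in the start windows of Cont and Nrg, 2 of 9 members, beside 20.2% of all genes, and TGTTTAC in none, beside 11.6%.

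Of 24 other septate junction genes, 10 had a reproducible summit within 1000 bp of a start site, read against the 20.8% of all protein-coding genes. Their share was 41.7%, and the 9 members' was 11.1%. The difference was not tested. The exact interval of the 24 genes' share, 22.1 to 63.4%, lay just above the 20.8%. That of the 9 members' share, 0.281 to 48.2%, held the 20.8% and overlapped the interval of the 24. The shares were not adjusted for the number of start sites per gene, and the genes were chosen with earlier results known. Of the 33 genes of both sets, 11 had a reproducible start-site summit. Among core and assembly genes 6 of 13 had one: nrv1, Atpalpha, the catalytic subunit of the sodium-potassium pump, cold, pasi1, pasi2 and Tsf2, a transferrin-family gene. Among scaffold and polarity genes 1 of 4 did, the guanylate kinase gene dlg1. All 3 genes of tricellular contacts did, namely Gli, bark and M6, and none of 4 genes of the smooth septate junctions of the gut did. The highest pooled signals after nrv1 (563) were at Atpalpha (340, 361 bp upstream of an inner start) and dlg1 (302, 538 bp upstream of an inner start). The lowest were at pasi2 (127) and Tsf2 (120). Some of these summits sit nearer to another gene: that of M6 to Glg1, that of pasi1 to CG43102 and that of Tsf2 to CG34242. Both pump subunit genes of this wider list, nrv1 and Atpalpha, had strong start-site peaks. The nrv1 peak is the same peak as the strongest in the nrv2 window, so it is counted for both genes.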

How the data were processed

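The authors' peak lists were used as deposited, as narrowPeak files (build dm6, per the labels and the deposited README): 1 list per replicate, 1 of the pooled replicates, and 1 of IDR-thresholded (reproducible) peaks derived from these. The sources used here do not name an aligner, a peak caller or the value of a threshold. Each peak's deposited score is the signal column of that format, ranked only within its own list. The deposited −log10 q-value was used only to mark peaks with a q-value of at most 0.05. The other deposited column used, the summit offset, was added to the peak start. The 3917 reproducible peaks equal the best 3917 pooled peaks.

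Genes and start sites came from the Ensembl 115 annotation (BDGP 6.54), and sequences from the RefSeq Release 6 genome, whose arms no peak overran. All 9 genes had the same coordinates in RefSeq, and all 24 symbols of the wider list matched. The nearest annotated start, a 1000 bp start-site window and overlaps of at least 1 bp were used. Alternatives were flanks of 2 and 10 kb, windows of 500 and 2000 bp, each replicate alone, all pooled peaks, the better 1958 reproducible peaks, own-nearest summits only, and word windows of 50 and 250 bp. Counting was tested on planted summits. Shares are descriptions without tests. The genes, lists and words were chosen with earlier results of these data known. Each member was described, with other septate junction genes named if they had a reproducible start-site summit. Software was matplotlib 3.10.9, scipy 1.17.1, pandas 2.3.3, numpy 2.4.6 and Python 3.11.15.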

Additional observations from a re-analysis of the deposited data

How the results depend on the processing

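The count of members with a reproducible summit in the window stayed at 5 in the best 3917 peaks of either replicate alone (5 to 5), and was 9 with all pooled peaks and 1 when only summits nearest to the member's own start were counted. The shares of all protein-coding genes under these settings are not given here, so these counts do not set the members apart. The count with a start-site summit was 1 in either replicate (1 to 1), 8 with all pooled peaks (58.4% of all genes) and 0 with a 500 bp window, since the Mcr summit lies 780 bp from its start. The share of all genes for the 500 bp window is not given. Summits over the members numbered 10 to 11 in either replicate, 6 in the upper part of the reproducible list (1958 peaks), 89 in all pooled peaks, 6 with 2 kb flanks, 16 with 10 kb flanks and 1 when nearest to the own start. Their density was 0.531 to 0.584 per 10 kb in either replicate, 0.319 in the upper part and 4.73 in all pooled peaks. The share matched in both replicates was 42.7% over all pooled peaks. Other septate junction genes with a start-site summit numbered 9 to 11 in either replicate, 4 in the upper part and 21 in all pooled peaks. The pooled count stands beside 58.4% of all protein-coding genes, and the share of all genes in the upper part is not given. The lists differ in length by construction. The share of the members' summits with a forkhead word was 30% within 50 bp and 80% within 250 bp, against 41.4% and 85.4% of all reproducible summits. Under the other settings these results stayed within 1.5 times or the counting interval. Ranks of some best summits moved. That of nrv2 went from 336 to 2507 with 2 kb flanks, and that of vari from 1291 to 304 with 10 kb flanks. For sinu it went from 1627 to 2591 in replicate 1 and 1070 in replicate 3. No paired analysis was possible because there is 1 group. Depth is unknown, so absence of a summit is not absence of binding.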
